A study of Mus musculus with 26 samples.

Results

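Tibialis anterior muscle taken on day 10 after an injection of cardiotoxin (CTX) was compared with uninjured muscle (day 0), to describe how far its RNA had come back to the starting state and which genes had not. The 4 libraries of this comparison, 2 for each day, were chosen by the day and replicate number in their labels. They belong to a time course of 10 libraries (days 0, 1, 3, 5 and 10), in a series of 26 samples. By the study's methods the animals were 6-week-old C57BL/6J male mice, with saline as the control, and no transgene or deletion is named for them. The labels name the tissue only as skeletal muscle, and whether the day 0 muscle was untouched or had received saline is not settled by the sources used here.

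CTX is a snake venom protein that lyses muscle fibres and leaves the stem cells of the muscle, the satellite cells, alive. In the usual course of repair, neutrophils and then macrophages clear the debris, satellite cells divide and differentiate, and the new cells fuse into fibres. The new fibres first make embryonic and neonatal contractile proteins and replace them later with adult forms. Fibroblasts and tendon cells lay down matrix in the same period.

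Expression was measured by RNA-seq and deposited as FPKM, the fragments on a gene divided by its length and by the size of the library. From the steps between low values, the 4 libraries held 14450000 to 16780000 reads on genes, and 1 read on a gene of 1 kb was worth 0.0749 to 0.0817 FPKM. Fibre genes dominated all 4 libraries, with 17173 and 19799.8 FPKM of Acta1 (skeletal actin) on day 0 and 23304 and 19739 FPKM on day 10, in keeping with the labelled tissue. Of 13 keratinocyte markers, 7 were listed at 0 in all 4 libraries, the defining keratins Krt5 and Krt14 among them. The level of Xist, a noncoding RNA made from the silenced X in female cells, was 6.92 and 5.77 FPKM on day 0 and 8.32 and 8.85 FPKM on day 10, while the Y-linked genes Ddx3y, Eif2s3y, Uty and Kdm5d were at or below 0.108 FPKM. All 4 libraries therefore go against the sex given in the methods, and they match one another in this respect. Of the other 6 libraries only day 3 replicate 2 was of this kind. Both libraries of day 1, both of day 5 and day 3 replicate 1 had at most 0.152 FPKM of Xist and at least 6.10 FPKM of Ddx3y. Every value of days 1, 3 and 5 set against day 0 below therefore also compares libraries that differ in these genes, day 3 in 1 of its 2 libraries, and the part of this in those values was not tested. The methods say in general that experiments used independent biological samples, but neither they nor the labels tie the 2 libraries of a day to separate animals, so every p below measures the spread between libraries, which may be technical.

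By overall distance, day 10 was close to uninjured muscle. The distance used here is the root mean square (RMS) difference of log2(FPKM + 0.1) over the 16753 genes that reached 0.5 FPKM in 2 or more of the 10 libraries. The day 0 libraries lay 0.79 apart and the day 10 libraries 0.82 apart. Day 10 replicate 1 lay 0.81 and 0.75 from the day 0 libraries, about as far as the libraries of a single day lay from each other (0.66 to 0.85). Day 10 replicate 2 lay 1.03 and 0.83 from the same day 0 libraries. It was as near to the day 5 libraries (0.83 and 0.87) as to its own replicate, whereas replicate 1 lay 1.02 and 1.11 from day 5. The libraries of day 3, the day farthest from day 0, lay 1.36 to 1.65 away. The 2 day 10 libraries thus differed in how near they stood to day 0, and values are given for each of them below.

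**Figure D1:**
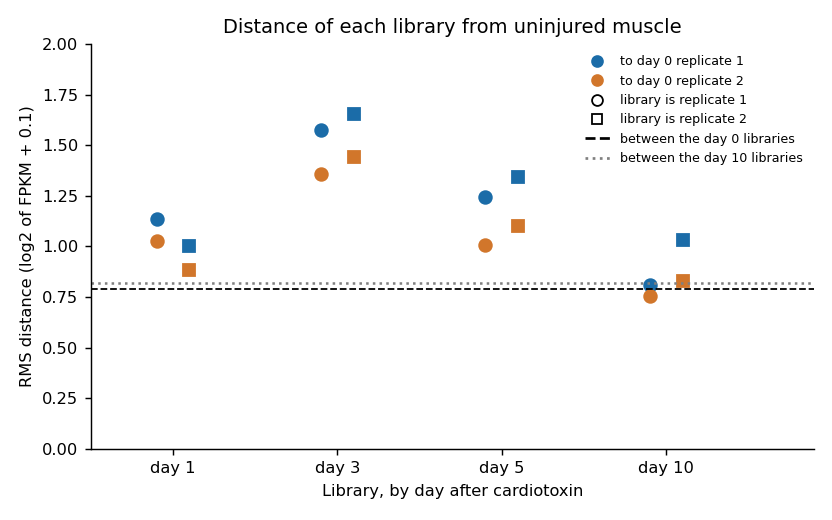
RMS distance of each injured library from day 0 replicate 1 (blue) and replicate 2 (orange), in units of log2(FPKM + 0.1), with circles for replicate 1 and squares for replicate 2 of each day. The dashed line is the distance between the day 0 libraries (0.79) and the dotted line that between the day 10 libraries (0.82), and day 10 replicate 1 sits on these lines while replicate 2 reaches 1.03.

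Differences between the days were tested with limma on log2(FPKM + 0.1), with a mean-variance trend and all 5 days in one fit. At an adjusted p of at most 0.05, 1 of the 16753 genes was called between day 10 and day 0 (0.00597%), against 1005 on day 1 (6%), 8179 on day 3 (48.8%) and 4267 on day 5 (25.5%). Day 10 matches day 0 in Xist and the Y-linked genes and the other days mostly do not, so the drop in calls from day 5 to day 10 is not a measure of recovery alone. On day 10, 1697 genes (10.1%) had an unadjusted p under 0.05, 898 of them higher (5.36%) and 799 lower (4.77%). The median size of the difference was 0.24 on the log2 scale on day 10, 0.77 on day 3 and 0.50 on day 5. Genes that stood more than 1 log2 unit from day 0 made up 9.27% of those tested on day 10 and 40.4% on day 3. Each p rests on the limma model, with a median standard error of 0.26, since the smallest two-sided p of an exact permutation test is 0.333 when 2 libraries face 2.

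A gene that is not called need not have returned. The 95% interval of the difference between day 10 and day 0 lay wholly within 1 log2 unit of 0 for 9337 genes (55.7%). These intervals are not adjusted over genes and rest on the spread between libraries, so they do not show a return gene by gene. For 7330 genes (43.8%) the interval reached past that range, so that a larger difference was not excluded, and for 86 genes (0.513%) it lay wholly outside. Among the 3641 genes whose higher group averaged 10 FPKM or more, 75.9% had an interval within the range, against 66.2% of the 8690 genes at 1 to 10 FPKM and 18.5% of the 4422 genes below 1 FPKM.

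Genes called on day 3 still lay, in the median, on the same side of day 0. Those called higher on day 3 (4104 genes, 24.5%) had a median difference from day 0 of 1.65 on that day, and the median was 1.02 on day 5 and 0.33 on day 10. For those called lower on day 3 (4075 genes, 24.3%) the same medians were -1.16, -0.62 and -0.21. The intervals on day 10 lay within 1 log2 unit for 41.1% of the former and 70.9% of the latter. These comparisons share the day 0 libraries, so their values stand side by side and are not independent of each other.

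**Figure D2:**
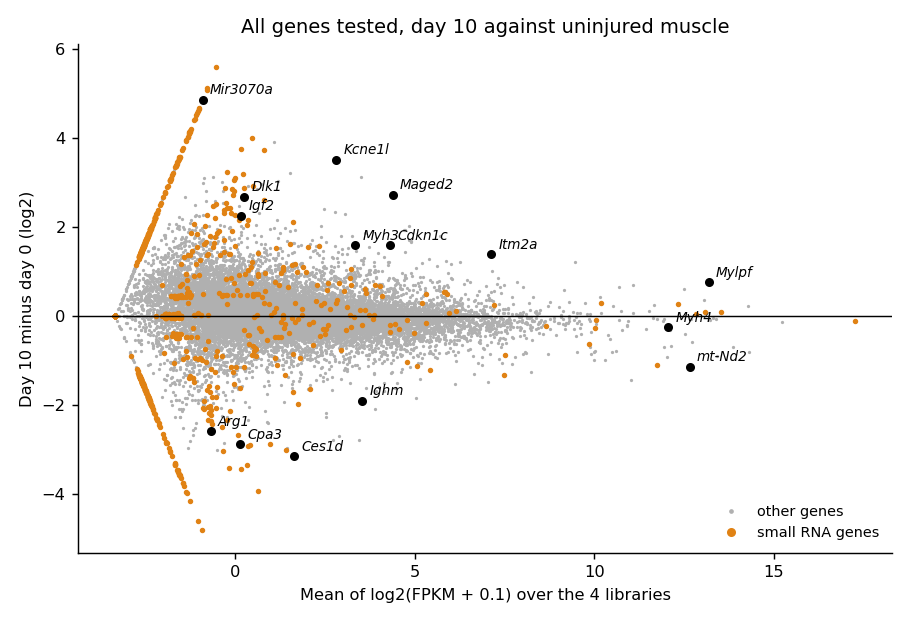
Difference between day 10 and day 0 (log2) against the mean of log2(FPKM + 0.1) over the 4 libraries, for the 16753 genes tested, with small RNA genes in orange. The 2 slanted orange rays are genes listed at 0 in both libraries of a day, Mir3070a lies on the upper ray, and Kcne1l, Maged2 and Itm2a stand above the cloud of other genes.

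The gene called was Mir3070a (ENSMUSG00000095147, GRCm38 chr12:109587943-109588031, plus strand), which encodes a microRNA hairpin in the imprinted Dlk1 to Dio3 domain of chromosome 12. It was listed at 0 in both day 0 libraries and at 1.84 and 4.24 FPKM on day 10, and the fitted difference was 4.86 (standard error 0.37, adjusted p = 0.0298). On day 3 it stood at 1.14 and 1.11 FPKM and on day 5 at 6.895 and 9.12 FPKM. On so short a gene these values correspond to 2 and 5 reads on day 10. The fitted difference from a group at 0 depends on the added constant, so no fold is given. The call rests on few reads, since the adjusted p was 0.272 with a pseudocount of 1, 0.0603 with a term for Xist, and 0.153, 0.0696 and 0.0528 without replicate 1 or 2 of day 0 or replicate 2 of day 10. The labels name an mRNA library kit while the methods describe linkers ligated to total or small RNA, so the molecules behind reads over a hairpin annotation are not settled, and the value is not given as a level of the mature microRNA.

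Small RNA genes filled most of the extremes in both directions. Of the 15 genes with the largest higher values by the rule for named genes, 15 were listed at 0 on both day 0 libraries, and 1 is annotated as protein coding (Gm26897). Of the 15 with the largest lower values, 14 were listed at 0 on both day 10 libraries, and none is protein coding. Counts of this kind rest on few reads (1 to 8 per library among the higher 15). Of the 15 higher genes, 6 encode microRNAs, and all 6 lie in the chromosome 12 domain. The 15 lower genes include 5 microRNA genes.

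The 6 hairpins, in order along the chromosome, are Mir493, Mir540, Mir3070a, Mir341, Mir453 and Mir496a. Mir341 lies inside Rian, and Mir453 and Mir496a inside Mirg, on the same strand, while no annotated gene spans the other 3. Their mature sequences are shown because they are among the items with the largest fitted differences, and the seed, bases 2 to 8, is in capitals (RefSeq, GRCm38.p6).
mmu-miR-493-5p: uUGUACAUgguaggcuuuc
mmu-miR-493-3p: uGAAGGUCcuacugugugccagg
mmu-miR-540-5p: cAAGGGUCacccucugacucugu
mmu-miR-540-3p: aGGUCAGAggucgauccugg
mmu-miR-3070-5p: aGCCCCUGaccuugaaccuggga
mmu-miR-3070-3p: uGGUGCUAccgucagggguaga
mmu-miR-341-5p: cGGUCGGCcgaucgcucgguc
mmu-miR-341-3p: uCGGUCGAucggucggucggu
mmu-miR-453: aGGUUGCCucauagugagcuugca
mmu-miR-496a-5p: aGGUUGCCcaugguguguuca
mmu-miR-496a-3p: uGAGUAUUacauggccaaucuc
The 11 mature sequences carry 10 different seeds. The 5 hairpins other than Mir3070a were listed at 0 on day 0 too. On day 10 the libraries held 2.95 and 1.82 FPKM of Mir493, 1.22 and 9.003 FPKM of Mir540 and 3.403 and 3.14 FPKM of Mir341. Mir453 stood at 2.99 and 0.9195 FPKM and Mir496a at 4.13 and 0.954 FPKM. The rule for named genes required both day 10 libraries to stand above both day 0 libraries. That both day 10 libraries held reads of every hairpin therefore follows from the choice of genes. None of these 5 was called. The seed GGUUGCC is shared by mmu-miR-453 and mmu-miR-496a-5p, whose hairpins both lie inside Mirg, and the other 9 seeds occur once each.

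Many genes of the domain were at 0 on day 0, which limits what their counts can show. Between Dlk1 and Dio3 (GRCm38 chr12:109452823-110281097) the table lists 118 genes, of which 69 were tested. In 23 of the 69 both day 10 libraries stood above both day 0 libraries, and in 0 did both stand below, where 19.2% and 20.4% of all genes tested did so. The 23 include the 6 hairpins and the long transcripts below, and the other 46 did not separate the days. Of the 69, 40 were listed at 0 on both day 0 libraries and so could not stand lower, and 35 were called against day 0 on day 5, a day that counts toward the filter on low values. The 19 tested genes that are not microRNAs had a median difference of 1.78 on day 10, after 3.06 on day 5.

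The domain's long transcripts had enough reads to be read library by library. Meg3, a maternally expressed long noncoding RNA, stood at 4.46 and 5.78 FPKM on day 0 and 11.7 and 26.96 FPKM on day 10, a difference of 1.79 (standard error 0.52, adjusted p = 0.404). Rian, a noncoding transcript farther along the same strand, stood at 2.33 and 2.73 FPKM on day 0 and 6.28 and 17.5 FPKM on day 10, a difference of 2.02 (standard error 0.61, adjusted p = 0.404). Mirg, which hosts many of the microRNAs, stood at 0.4403 and 0.534 FPKM on day 0 and 1.24 and 3.85 FPKM on day 10, a difference of 1.98. In all 3 the groups did not overlap, and replicate 2 of day 10 stood above replicate 1. Dlk1, the paternally expressed gene at the other end, a membrane protein of the Notch ligand family that muscle makes in development and repair, stood at 0.114 and 0.9399 FPKM on day 0 and 1.17 and 7.09 FPKM on day 10 (difference 2.68, adjusted p = 0.451). On day 5 Dlk1 had stood at 6.16 and 19.4 FPKM. All 4 had their highest mean on day 5, and the mean of day 10 lay between those of day 5 and day 0.

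Imprinted growth genes on other chromosomes stood above day 0 as well. These are genes expressed from a single parental copy, most of them regulators of fetal growth. The list of 16 holds Dlk1, Meg3, Rian and Mirg too, so its counts and medians are not those of the other chromosomes alone. Of the 16, 15 were tested and 15 stood above day 0. Of these, 10 did so without overlap and 10 with an unadjusted p under 0.05, against 19.2% and 5.36% of all genes, and 0 were called. The list's median was 1.38, against 0.00 for all genes tested, and it stood at 0.86 in replicate 1 and 1.91 in replicate 2 of day 10. Without replicate 1 of day 0 it was 0.79. Igf2, a fetal insulin-like growth factor, stood at 0.2104 and 0.759 FPKM on day 0 and 1.97 and 2.83 FPKM on day 10, a difference of 2.25 (standard error 0.54, adjusted p = 0.339). Cdkn1c, a cyclin-dependent kinase inhibitor of cells that leave the cycle, stood at 8.74 and 14.8 FPKM on day 0 and 27.3 and 43.2 FPKM on day 10, a difference of 1.58 (standard error 0.28, adjusted p = 0.279). Peg3, a zinc finger protein of muscle progenitors, stood at 6.87 and 5.27 FPKM on day 0 and 11.98 and 9.85 FPKM on day 10, and Grb10, an adaptor that dampens insulin signalling, at 6.71 and 8.17 FPKM on day 0 and 11.2 and 16.2 FPKM on day 10, with differences of 0.84 and 0.85. Igf2r, the receptor that removes Igf2, differed by 0.33 with little spread (11.1 and 12.7 FPKM against 15.3 and 14.7 FPKM). Zim1 stood at 1.04 and 1.29 FPKM on day 0 and 2.09 and 2.52 FPKM on day 10 (difference 0.93). Mest and Plagl1 stood on average higher on day 10, but replicate 2 of day 0 exceeded replicate 1 of day 10 in both (1.71 and 8.903 FPKM on day 0 and 7.22 and 19.5 FPKM on day 10 for Mest). H19, the noncoding partner of Igf2, did not separate the days, with 853 and 2131 FPKM on day 0 and 1949.5 and 1283 FPKM on day 10.

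**Figure D3:**
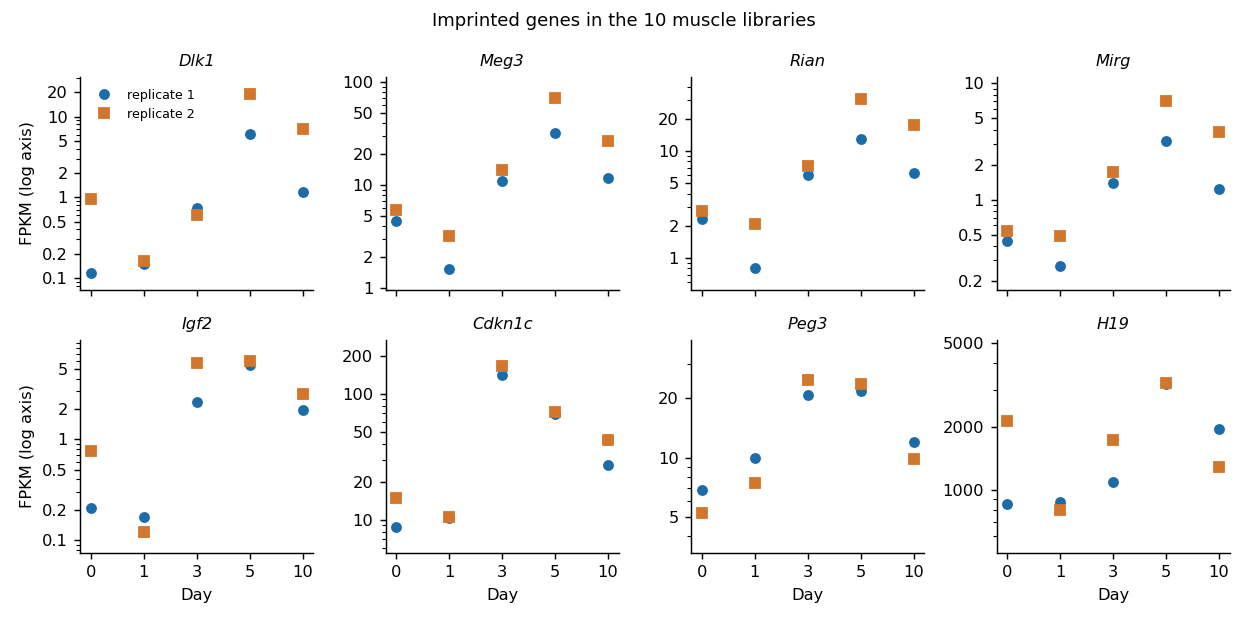
FPKM (log axis) of 8 imprinted genes in the 10 muscle libraries by day after CTX, with circles for replicate 1 and squares for replicate 2. Dlk1, Meg3, Rian and Mirg had their highest mean on day 5, and on day 10 both libraries still stood above both day 0 libraries in every panel except H19.

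Among protein-coding genes that are not in any list, a few stood apart on day 10, and they were chosen after their values had been seen. Kcne1l, also called Kcne5, a potassium channel accessory subunit encoded on the X chromosome, stood at 1.405 and 2.82 FPKM on day 0 and 20.1 and 27.8 FPKM on day 10, 11.4 times the day 0 mean. The difference was 3.50 (standard error 0.47, adjusted p = 0.122). It stood at 0.788 and 0.961 FPKM on day 3 and 4.85 and 8.31 FPKM on day 5, so day 10 was its highest day, with the limit that the day 5 libraries and 1 of day 3 differ from day 0 and day 10 in Xist and the Y-linked genes. Itm2a, a membrane protein linked to muscle and cartilage differentiation, stood at 76.6 and 98.1 FPKM on day 0 and 229 and 227 FPKM on day 10, a difference of 1.39 (standard error 0.18, adjusted p = 0.122), with almost no spread on day 10. Maged2, a MAGE family protein, stood at 4.73 and 13.6 FPKM on day 0 and 44.5 and 64.5 FPKM on day 10, a difference of 2.72 (standard error 0.45, adjusted p = 0.248). Mdfi, an inhibitor of MyoD family transcription factors, stood at 0.337 and 0.654 FPKM on day 0 and 4.57 and 3.51 FPKM on day 10, a difference of 2.84 (standard error 0.42, adjusted p = 0.173). The intervals of all 4 excluded 0 but their adjusted p missed the threshold. Kcne1l, Itm2a and Maged2 all lie on the X chromosome, whose median was 0.04. Of its 482 genes tested, 49 were higher and 20 lower at an unadjusted p under 0.05, against 5.36% and 4.77% of all genes.

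More genes of low level stood above baseline in both day 10 libraries. Mybphl, a myosin-binding protein best known from the atria, stood at 0.126 and 0.117 FPKM on day 0 and 2.304 and 1.42 FPKM on day 10 (difference 3.11). Nrn1, a small protein of neurite growth whose exons overlap Fars2 on the other strand, differed by 2.58. Slc38a1, a glutamine transporter, differed by 2.53, and Gabrd, a GABA receptor subunit, by 2.58. None of these was called.

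Adult fast-fibre genes stood near day 0. The tibialis anterior is a fast muscle, and the 24 genes of this list had a median difference of -2.11 on day 3, when all 24 were called lower, -0.77 on day 5 and -0.06 on day 10 (0.15 with quantile normalization). On day 10, 10 stood above and 14 below day 0, and for 12 of the 24 the interval lay within 1 log2 unit. The median stood at 0.15 in replicate 1 and -0.17 in replicate 2. Myh4, the myosin of the fastest fibres, stood at 5647 and 3833 FPKM on day 0 and 6104 and 2515 FPKM on day 10, a difference of -0.25 (standard error 0.49), and Myh1 at 2433 and 3233 FPKM on day 0 and 2788 and 3295 FPKM on day 10, a difference of 0.11. Ckm, the creatine kinase of muscle, differed by -0.06, Tnni2 by -0.06 and Tnnc2 by -0.05, with standard errors of 0.30, 0.27 and 0.29.

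A few fast-fibre genes stood above uninjured muscle instead. Mylpf, the regulatory light chain of fast myosin, stood at 7181 and 7081 FPKM on day 0 and 13008 and 11103 FPKM on day 10, a difference of 0.75 (standard error 0.24, adjusted p = 0.418). Casq1, which stores calcium in the sarcoplasmic reticulum, stood at 1766 and 1614 FPKM on day 0 and 3236 and 2338 FPKM on day 10, a difference of 0.70, and Myl1, the essential light chain, at 4249.5 and 5071 FPKM on day 0 and 7554 and 6708 FPKM on day 10, a difference of 0.62. In all 3 the day 10 libraries lay above both day 0 libraries, and none was called. All 3 had been called lower on day 3. At the other side, Mylk2, the kinase that phosphorylates Mylpf, stood at 465 and 285 FPKM on day 0 and 299 and 140.5 FPKM on day 10, a difference of -0.83, with the groups overlapping.

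Slow-fibre genes varied more between the libraries of a day than between the days. The median difference of the 15 genes was 0.10, and the list stood at -0.60 and 0.60 around its mean in the day 0 libraries and at -0.47 and 0.88 in the day 10 libraries. Tnni1, the slow troponin I, stood at 4.86 and 21.3 FPKM on day 0 and 9.75 and 42.8 FPKM on day 10, and Tnnt1 at 19.3 and 96.3 FPKM on day 0 and 31.1 and 132 FPKM on day 10, so that replicate 2 was the higher library on both days. Myh7, the slow myosin, stood at 10.6 and 21.8 FPKM on day 0 and 8.06 and 9.197 FPKM on day 10, a difference of -0.82 (standard error 0.54), after -4.56 on day 5.

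Developmental fibre genes stood above day 0, though well under their levels of days 3 and 5. The list had a median of 3.05 on day 3, 2.51 on day 5 and 1.14 on day 10, and 13 of its 14 genes stood above day 0. Without overlap, 5 stood higher and 1 lower, and 4 stood higher with an unadjusted p under 0.05, against 19.2%, 20.4% and 5.36% of all genes, and 0 were called. Replicate 1 stood at 0.63 and replicate 2 at 1.23, and without replicate 1 of day 0 the median was 0.50. Myh3, the embryonic myosin, stood at 3.91 and 8.57 FPKM on day 0 and 11.8 and 26.5 FPKM on day 10, a difference of 1.59 (standard error 0.50, adjusted p = 0.409) after 6.52 on day 3. Myh8, the neonatal myosin, stood at 6.63 and 18.7 FPKM on day 0 and 17.03 and 45.8 FPKM on day 10, a difference of 1.32 (standard error 0.66), and replicate 2 of day 0 was above replicate 1 of day 10. Actc1, the cardiac actin that fetal muscle also uses, stood at 327 and 652 FPKM on day 0 and 1137 and 995 FPKM on day 10, a difference of 1.20. Ankrd1, a stretch-responsive titin-binding protein, stood at 11.1 and 15.9 FPKM on day 0 and 85.7 and 29.7 FPKM on day 10, a difference of 1.92, and here replicate 1 was the higher day 10 library. Ncam1, the adhesion molecule of denervated and regenerating fibres, stood at 0.964 and 1.63 FPKM on day 0 and 2.54 and 2.88 FPKM on day 10, and Chrng, the fetal subunit of the acetylcholine receptor, at 0.135 and 1.01 FPKM on day 0 and 0.687 and 1.49 FPKM on day 10. The only member of the 14 below day 0 was Mylk4, with 118 and 120.4 FPKM on day 0 and 81.1 and 20.8 FPKM on day 10. Its level in uninjured muscle was far above those of Myh3 and Myh8, so its values do not mark it as a developmental gene.

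**Figure D4:**
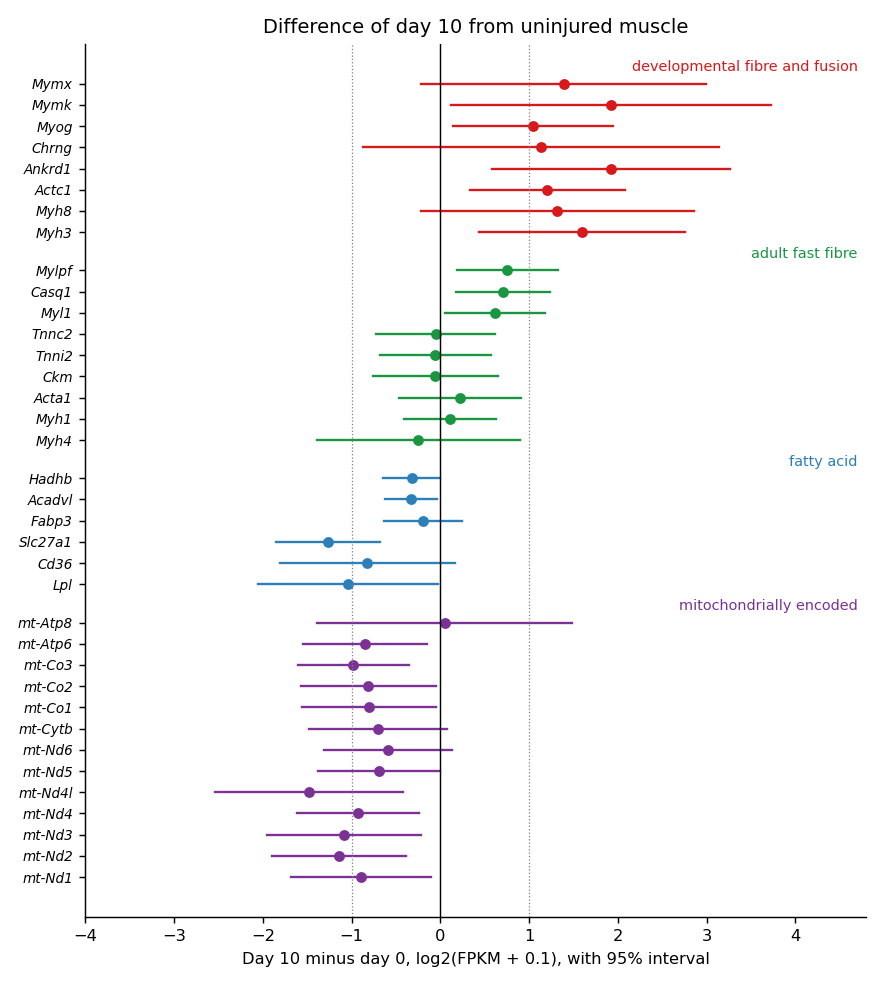
Difference of day 10 from day 0 on the log2(FPKM + 0.1) scale with its 95% interval from limma, for genes in 4 groups, with dotted lines at 1 log2 unit either way. All 13 mitochondrially encoded genes are drawn, and a selection in the other groups. The fast-fibre genes drawn lie around 0 except Myl1, Casq1 and Mylpf, and mitochondrially encoded genes other than mt-Atp8 lie below 0. The developmental and fusion genes drawn lie above 0. The 1 of 14 developmental and 5 of 13 myogenic and fusion genes that stood below day 0 are not drawn.

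Of the 13 myogenic and fusion genes tested, 8 stood above and 5 below day 0. Without overlap, 6 stood higher and 3 lower, and 3 were higher and 1 lower at an unadjusted p under 0.05, against 19.2%, 20.4%, 5.36% and 4.77% of all genes. The median was 0.22 on day 10 and 1.59 on day 3, and leaving out replicate 2 of day 0 brought the former to 0.03. Cdh15, a cadherin of satellite cells and myoblasts chosen here after its values had been seen, was the lower one, with 8.77 and 8.57 FPKM on day 0 and 5.803 and 7.19 FPKM on day 10. Mymk, the membrane protein that drives fusion of myoblasts, stood at 0.637 and 3.57 FPKM on day 0 and 3.9995 and 9.33 FPKM on day 10, a difference of 1.92 (standard error 0.77, adjusted p = 0.468), and its partner Mymx at 0.234 and 1.31 FPKM on day 0 and 1.35 and 2.13 FPKM on day 10, a difference of 1.39 (standard error 0.69). Myog, the transcription factor of differentiation, stood at 7.73 and 10.97 FPKM on day 0 and 15.1 and 24.1 FPKM on day 10, a difference of 1.04. All 3 lay above day 0 without overlap. Myod1, which marks committed myoblasts, overlapped between the days (19.7 and 11.3 FPKM on day 0 and 23.3 and 14.7 FPKM on day 10), while Myf5, an early myogenic factor, stood at 0.5395 and 0.395 FPKM on day 0 and 0.823 and 0.977 FPKM on day 10. Pax7, the marker of satellite cells, stood at 0.836 and 0.843 FPKM on day 0 and 1.003 and 1.07 FPKM on day 10, a difference of 0.27 with an interval from -0.30 to 0.85. Of the 14 satellite cell genes tested, 7 stood above day 0 without overlap and 0 below, where 19.2% and 20.4% of all genes did. Of the 14, 1 was higher at an unadjusted p under 0.05, near the 5.36% of all genes, and the median was 0.28 (0.16 without replicate 1 of day 0).

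Genes of the neuromuscular junction, the synapse of nerve and fibre, had a median of 0.34 (0.22 without replicate 2 of day 10). Of the 15, 5 stood above and 1 below day 0 without overlap, against 19.2% and 20.4% of all genes. Chrnb1, a subunit shared by fetal and adult receptors, stood at 22.5 and 27.7 FPKM on day 0 and 38.7 and 42.7 FPKM on day 10, a difference of 0.70. The adult subunit Chrne overlapped (16.8 and 8.73 FPKM on day 0 and 17.3 and 13.7 FPKM on day 10). Mettl3, which encodes the m6A methyltransferase that the series is about, stood at 4.68 and 4.04 FPKM on day 0 and 4.79 and 4.03 FPKM on day 10. Over the 16 m6A writers, erasers and readers tested the median was -0.03, with the interval of 15 within 1 log2 unit. Their differences ran from -0.51 to 0.85. At an unadjusted p under 0.05, 0 were higher and 2 lower, against 5.36% and 4.77% of all genes, and 0 were called.

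Genes of the mitochondrial genome stood low. All 13 protein genes had been called lower on day 3 (median -2.67), and the median was -0.85 on day 10. On day 10, 12 of 13 stood below day 0 without overlap and 10 had an unadjusted p under 0.05, against 20.4% and 4.77% of all genes, and 0 were called. Their summed level was 117378 and 75582 FPKM on day 0 and 61737 and 46446 FPKM on day 10. mt-Nd2, a subunit of complex I, stood at 12385 and 7405 FPKM on day 0 and 5195 and 3629.6 FPKM on day 10, a difference of -1.14 (standard error 0.33, adjusted p = 0.404). mt-Co3, a subunit of complex IV, differed by -0.98 and mt-Co1 by -0.80. mt-Atp8, whose exon overlaps mt-Atp6 so that reads could be split between them, did not separate the days (39.3 and 13.2 FPKM on day 0 and 26.8 and 20.7 FPKM on day 10). The genes share 1 genome and are cut from long common transcripts, so they are not 13 separate observations. With quantile normalization the median was -0.58, and without replicate 1 of day 0, the library with the highest level, it was -0.54.

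Nuclear genes of the same respiratory chain stood near day 0, most of them a little below it. The 59 nuclear electron transport genes had a median of -1.70 on day 3 and -0.12 on day 10 (0.01 with quantile normalization), and the interval lay within 1 log2 unit for all 59. The same held for all 24 TCA cycle genes (median -0.11) and for 15 of 16 ATP synthase genes (median -0.10). In these 3 lists 47 of 59, 18 of 24 and 11 of 16 genes stood below day 0. Without overlap, 5 electron transport genes stood higher and 6 lower, 0 and 7 TCA cycle genes, and 2 and 3 ATP synthase genes. The shares over all genes were 19.2% and 20.4%. The difference between the nuclear and the mitochondrially encoded lists was not tested.

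Genes of fatty acid uptake and oxidation mostly stood below day 0. Of its 26 genes, 24 stood below day 0 and 19 did so without overlap, 6 had an unadjusted p under 0.05 in this direction, against 20.4% and 4.77% of all genes, and 0 were called. The median was -0.31 (-0.19 with quantile normalization), and it was close in both day 10 libraries (-0.26 and -0.39). Among the larger differences were those of genes for entry of fat into the cell. Slc27a1, a fatty acid transporter, stood at 25.5 and 19.997 FPKM on day 0 and 10.1 and 8.58 FPKM on day 10, a difference of -1.27 (standard error 0.25, adjusted p = 0.318). Lpl, the lipase that frees fatty acids at the capillary wall, stood at 62.98 and 43.6 FPKM on day 0 and 26.1 and 24.6 FPKM on day 10, a difference of -1.05, and Cd36, a fatty acid receptor, at 67.95 and 67.5 FPKM on day 0 and 29.4 and 49.7 FPKM on day 10, a difference of -0.83. The enzymes of the oxidation spiral differed less, by -0.33 for Acadvl and -0.33 for Hadhb. Pdk4, which turns pyruvate away from the TCA cycle when fat is burned, stood at 185 and 328 FPKM on day 0 and 147 and 96.9 FPKM on day 10.

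Of 26 glycolysis and glycogen genes, 8 stood above and 18 below day 0. Their median was -0.12 (0.00 with quantile normalization). Without overlap, 4 stood higher and 7 lower, and 1 was higher and 5 lower at an unadjusted p under 0.05. The shares over all genes were 19.2%, 20.4%, 5.36% and 4.77%. Pfkfb3, which makes the activator of phosphofructokinase, stood at 47.1 and 31.6 FPKM on day 0 and 23.9 and 6.43 FPKM on day 10, a difference of -1.63, and Pfkfb1 at 14.2 and 11.8 FPKM on day 0 and 7.79 and 4.05 FPKM on day 10. Eno1, the enolase of proliferating cells and immature fibres, which has a near-identical copy in the genome, stood at 18.4 and 24.2 FPKM on day 0 and 40.2 and 42.8 FPKM on day 10, a difference of 0.97 (standard error 0.18, adjusted p = 0.283), while its adult muscle counterpart Eno3 differed by -0.06. Gamt, the last enzyme of creatine synthesis, stood at 7.23 and 8.19 FPKM on day 0 and 23.2 and 22.3 FPKM on day 10, a difference of 1.55 (standard error 0.34, adjusted p = 0.339). Of 14 growth factor and atrophy genes tested, 10 stood below day 0, 1 with an unadjusted p under 0.05, against 4.77% of all genes. Mstn, the hormone that limits muscle growth, stood at 9.53 and 7.75 FPKM on day 0 and 5.07 and 2.12 FPKM on day 10 (difference -1.36) and Fbxo32, a ubiquitin ligase of wasting, at 79.6 and 42.4 FPKM on day 0 and 42.5 and 11.003 FPKM on day 10 (difference -1.42). In Fbxo32, Mstn and Pfkfb3, replicate 2 of day 10 was the lowest of the 4 libraries.

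**Figure D5:**
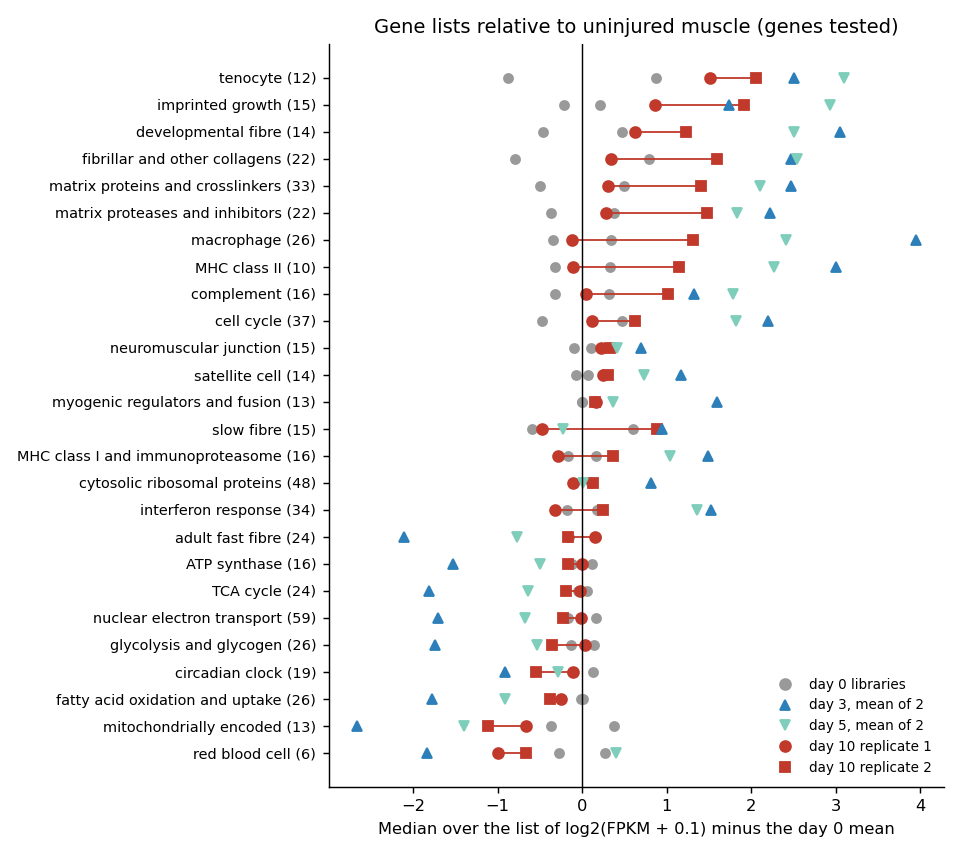
Median over each gene list of log2(FPKM + 0.1) minus the day 0 mean, for the day 0 libraries (grey), day 3 and day 5 (triangles, mean of 2 libraries) and the 2 day 10 libraries (red, joined by a line), with the number of genes tested in brackets. Tenocyte, imprinted and developmental fibre genes stand above and mitochondrially encoded and fatty acid genes below day 0 in both day 10 libraries, while for macrophage and MHC class II genes replicate 1 is at day 0 and replicate 2 is not.

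Tendon genes had the largest median difference of the 47 gene lists. In bulk muscle, more cells of a type and more RNA per cell cannot be told apart. All 12 tenocyte genes stood above day 0, 9 of them without overlap, with a median of 1.75 (1.51 in replicate 1 and 2.05 in replicate 2). Without overlap the share over all genes was 19.2%, and 1 of the 12 had an unadjusted p under 0.05, against 5.36% of all genes. Tnmd, a membrane protein of tendon cells, stood at 1.01 and 5.26 FPKM on day 0 and 11.3 and 14.2 FPKM on day 10, a difference of 2.39 (standard error 1.15). Fmod, a proteoglycan that spaces collagen fibrils, stood at 1.55 and 8.43 FPKM on day 0 and 11.98 and 28.2 FPKM on day 10, a difference of 2.30, and Comp, which helps assemble them, at 0.162 and 0.732 FPKM on day 0 and 1.65 and 6.91 FPKM on day 10, a difference of 2.91 (standard error 1.06, adjusted p = 0.451). The day 0 libraries also differed from each other in these genes, at -0.87 and 0.87 around their mean. Without replicate 1 of day 0 the median was 0.88.

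All 22 collagen genes stood above day 0, with a median of 0.96, but only 4 did so without overlap and 1 with an unadjusted p under 0.05, no more than the shares over all genes (19.2% and 5.36%). Col1a1, the main collagen of scar and tendon, stood at 13.9 and 56.9 FPKM on day 0 and 64.2 and 148 FPKM on day 10, a difference of 1.79 (adjusted p = 0.457), and Col3a1 at 19.1 and 77.1 FPKM on day 0 and 51.9 and 159 FPKM on day 10, a difference of 1.24. The collagen median was 0.34 in replicate 1 and 1.59 in replicate 2 of day 10, and it was 0.16 without replicate 1 of day 0. Among 33 matrix proteins and crosslinkers, 30 stood above day 0, with a median of 0.87, which was 0.31 in replicate 1 and 1.403 in replicate 2 of day 10, and 0.34 when replicate 1 of day 0 was left out. Of the 22 matrix proteases and inhibitors, 5 had an unadjusted p under 0.05, all higher, and the median was 0.78 (0.28 in replicate 1 and 1.47 in replicate 2). Timp1, an inhibitor of matrix metalloproteases made at sites of injury, stood at 2.08 and 3.63 FPKM on day 0 and 7.36 and 12.6 FPKM on day 10, a difference of 1.77 (standard error 0.38, adjusted p = 0.339). Sfrp2, a secreted Wnt modulator that is listed with the fibroadipogenic progenitors, the fibroblasts of muscle, stood at 0.186 and 0.139 FPKM on day 0 and 0.797 and 0.8405 FPKM on day 10, a difference of 1.81, and Pdgfra, the receptor that defines these cells, at 1.07 and 1.195 FPKM on day 0 and 0.986 and 1.73 FPKM on day 10, a difference of 0.19.

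In the median of the list, the macrophage residue rested on 1 library. The 26 macrophage genes tested had a median of 3.95 on day 3, 2.41 on day 5 and 0.70 on day 10, but on day 10 it was -0.12 in replicate 1 and 1.31 in replicate 2. Their summed level was 92.2 and 163 FPKM on day 0 and 118 and 459.9 FPKM on day 10. Without overlap, 5 of the 26 stood higher and 3 lower, against 19.2% and 20.4% of all genes. At an unadjusted p under 0.05, 4 were higher and 3 lower, against 5.36% and 4.77% of all genes. Gpnmb, a marker of lipid-laden macrophages, stood at 0.764 and 1.72 FPKM on day 0 and 0.815 and 19.2 FPKM on day 10, and Spp1, osteopontin, at 2.19 and 3.54 FPKM on day 0 and 1.93 and 37.8 FPKM on day 10, so that only replicate 2 of day 10 was above both day 0 libraries. Lyz2, the lysozyme of myeloid cells, stood at 29.5 and 63.2 FPKM on day 0 and 39.4 and 181 FPKM on day 10, and the pan-macrophage marker Adgre1 at 0.445 and 1.66 FPKM on day 0 and 0.7298 and 3.44 FPKM on day 10. Cd68, a lysosomal marker, lay above day 0 in both (1.92 and 2.86 FPKM on day 0 and 3.703 and 16.4 FPKM on day 10, difference 1.70), and so did C1qa, a complement subunit that macrophages make (6.87 and 13.3 FPKM on day 0 and 13.98 and 35.9 FPKM on day 10). MHC class II genes followed the same split, with -0.11 in replicate 1 and 1.15 in replicate 2. Interferon response genes stood near day 0, with a median of -0.04 after 1.52 on day 3, and 0 of 34 had an unadjusted p under 0.05. The difference between the day 10 libraries in matrix, slow-fibre and macrophage genes went the same way as that between the day 0 libraries, replicate 2 being higher in each case.

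Some members of the immune lists stood below day 0. Of the macrophage genes tested, 21 stood above and 5 below day 0. Of the genes of T, NK and B cells 10 stood above and 4 below, and of those of dendritic and mast cells 6 above and 6 below, with medians of 0.21 and 0.13. Without overlap, 3 dendritic and mast cell genes stood higher and 5 lower, against 19.2% and 20.4% of all genes. At an unadjusted p under 0.05, 0 were higher and 2 lower, against 5.36% and 4.77% of all genes. Arg1, an arginase of macrophages, stood at 1.48 and 1.41 FPKM on day 0 and 0.147 and 0.169 FPKM on day 10, a difference of -2.58 (standard error 0.67, adjusted p = 0.386). Ighm, the heavy chain of immunoglobulin M, stood at 29.5 and 17.04 FPKM on day 0 and 7.49 and 4.68 FPKM on day 10, a difference of -1.90 (standard error 0.29, adjusted p = 0.187), while the light chain Igkc stood at 0.302 and 1.55 FPKM on day 0 and 2.92 and 14.3 FPKM on day 10. Among mast cell genes, Cpa3, a carboxypeptidase of their granules, stood at 1.53 and 5.38 FPKM on day 0 and 0.377 and 0.249 FPKM on day 10, a difference of -2.88 (standard error 0.58, adjusted p = 0.32), and Tpsab1, a tryptase with close paralogs (chosen after its values had been seen), at 0.882 and 1.18 FPKM on day 0 and 0.078 and 0.07202 FPKM on day 10, a difference of -2.68. Fcer1a, the subunit of the IgE receptor, stood at 0.483 and 0.9005 FPKM on day 0 and 0 and 0.151 FPKM on day 10. The mast cell proteases Tpsb2 and Cma1 differed less, by -0.59 and -0.56, and Mcpt4 stood higher (0.435 and 0.676 FPKM on day 0 and 1.03 and 1.36 FPKM on day 10), so the mast cell genes did not all stand lower. Cpa3 was at 5.43 and 4.42 FPKM on day 1, 0.401 and 0.847 FPKM on day 3 and 0.566 and 1.04 FPKM on day 5, and it was called lower on day 3.

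Protein-coding genes with the largest lower values were also chosen after their values had been seen. Ces1d, a carboxylesterase that splits lipid esters, stood at 16.6 and 5.06 FPKM on day 0 and 3.31 and 0.223 FPKM on day 10, a difference of -3.15 (standard error 1.13, adjusted p = 0.445). Prima1, which anchors acetylcholinesterase in membranes, stood at 2.43 and 1.49 FPKM on day 0 and 0.521 and 0 FPKM on day 10, and Cyp1a1, an enzyme of foreign compound metabolism, at 7.11 and 2.55 FPKM on day 0 and 1.201 and 0.433 FPKM on day 10, with differences of -3.01 and -2.39. Saa3, an acute-phase protein, stood at 0.462 and 2.16 FPKM on day 0 and 0.0313 and 0.0579 FPKM on day 10. In Ces1d and Cyp1a1 the mean of day 10 lay between those of day 5 and day 0, the day 5 levels being 0.492 and 0.321 FPKM and 0.132 and 0.127 FPKM.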

How the data were processed

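The deposited FPKM values were made by the authors from HISAT2 alignments to GRCm38, with featureCounts for the reads of each gene and the fpkm function of DESeq2. Strand and versions are not given in the sources used here. Genes that reached 0.5 FPKM in 2 or more of the 10 libraries were taken to log2(FPKM + 0.1) and fitted with limma 3.58.1 (R 4.3.3, lmFit and eBayes with trend, Benjamini-Hochberg adjustment). Depth was read from whole-read steps (97.2% to 98.0% of low values within 2%). The members and the 47 gene lists were chosen with earlier results of these data known. Named were genes called with a mean of at least 1 FPKM and no overlap, the list was filled to 15 per direction with unadjusted p under 0.05 and a difference of at least 1, and to these were added the 2 largest and 2 most abundant members of a list and Mettl3, Mymk, Mymx, Chrng, Tnni1, Tnni2, Tnnc2, Myh3, Myh8, Myh4, Xist and the Y-linked genes. Other names, and those of list members outside these ranks, were chosen after values had been seen. Values of C2C12 cells were not used here. Where a symbol had 2 identifiers, the one with the higher mean was used. Alternatives were pseudocounts of 1 and 0.01, no filter or one at 1 FPKM, quantile normalization, median-ratio scaling, only these 4 libraries, a replicate block, no trend, each library left out, and a term for Xist added after the data had been seen. On simulated data for this comparison over 16753 genes, 138 of 200 genes changed by 2 on the log2 scale were called with 8 unchanged ones, and 182 of 200 changed by 4 with 9. The simulation drew independent normal noise with the fitted spread of each gene, without read counting or shifts of whole libraries. It therefore does not give the share of real changes that the test would call in these libraries. Coordinates are those of GENCODE M21 (GRCm38), in which exons of 27 of the 119 genes named overlap another gene on the other strand (Casq1, Cdkn1c, Fbxo32 and Myh7 among them), so that without strand their reads cannot be told apart. Figures were drawn with matplotlib 3.10.9.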

Additional observations from a re-analysis of the deposited data

How the results depend on the processing

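The count of genes called between day 10 and day 0 was 1, and it stayed at 1 with a filter at 1 FPKM, median-ratio scaling or quantile normalization. It was 0 with a pseudocount of 1, with the 4 libraries alone in the fit and with a term for libraries that express Xist (chosen after the data had been seen), 15 with a pseudocount of 0.01, 28 without a filter, 15 without a trend and 1697 at an unadjusted p under 0.05. With a difference of at least 2 required as well, the counts were 0, 0, 0, 15, 16 (no filter) and 14 (no trend). Leaving out 1 library gave 0 to 1 under both rules. The replicate numbers are not tied to animals in the labels. The deviations of same-numbered libraries correlated at -0.02 to 0.21 across days, and the highest value was that between day 0 and day 10. The libraries were therefore not paired in the main fit, and whether these 4 are paired is not settled. With a replicate block the counts were 2 and 2. The share of genes with an interval within 1 log2 unit (55.7%) was 82.3% with a pseudocount of 1 and 52.3% with 0.01. It was 50.5% without a filter and 50.8% with the 4 libraries alone in the fit. Every fit that left out 1 of the 4 libraries, and so had 1 library for a day, gave a lower share still. The mean distance of day 10 from day 0 (0.86) was 0.43 with a pseudocount of 1 and 1.39 with 0.01. Leaving out replicate 2 of day 10 gave the lowest and leaving out replicate 1 of day 10 the highest difference for Adgre1 (-0.24 and 1.85, 0.81 with all libraries), Gpnmb (-0.46 and 3.94, 1.74), Lyz2 (-0.13 and 2.06, 0.97), Spp1 (-0.51 and 3.71, 1.603) and Tnni1 (-0.064 and 2.06, 1.00). Kcne1l was called with the replicate block (adjusted p = 0.0317). The cause of these changes was not tested. At 14450000 to 16780000 reads, the interval of most genes below 1 FPKM did not lie within 1 log2 unit of 0.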

Other observations

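Most clock genes stood lower on day 10, but only replicate 2 lay outside the day 0 spread of the list. Of 19 genes of the circadian list, 15 stood below day 0, 7 of them without overlap, and 4 had an unadjusted p under 0.05 in this direction, against 20.4% and 4.77% of all genes, and 0 were called. The median was -0.30, and it was -0.10 in replicate 1 and -0.55 in replicate 2 of day 10. The day 0 libraries stood at 0.12 and -0.12 around their mean. The output gene Hlf stood at 0.745 and 0.404 FPKM on day 0 and 0.22002 and 0.135 FPKM on day 10, and the nuclear receptor Rora, which acts on the clock's core loop, at 5.32 and 4.47 FPKM on day 0 and 3.51 and 2.41 FPKM on day 10. The core activators Arntl and Clock differed by -0.23 and 0.03, within their standard errors of 0.29 and 0.17.

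Genes of red blood cells stood low as well. Of 6 red blood cell genes tested, 6 stood below day 0. Of these, 5 did so without overlap and 0 with an unadjusted p under 0.05, against 20.4% and 4.77% of all genes. Their median was -0.85, but 4 of the 6 are globin genes with near-identical copies, among which reads could be split. The globin Hba-a1 stood at 51.9 and 90.5 FPKM on day 0 and 31.7 and 39.6 FPKM on day 10. Of 13 genes of Schwann cells, the glia of peripheral nerve, and of nerve injury, 6 stood above and 7 below day 0, with a median of -0.22 that was 0.03 without replicate 2 of day 0. Sox10, their defining transcription factor, stood at 0.7101 and 0.856 FPKM on day 0 and 0.271 and 0.361 FPKM on day 10 (difference -1.09), while Gap43, a protein of growing nerve endings, stood at 0 and 0.0492 FPKM on day 0 and 0.268 and 0.248 FPKM on day 10. Mt2, a metal-binding protein of stress, stood at 3.28 and 4.97 FPKM on day 0 and 9.86 and 20.8 FPKM on day 10, a difference of 1.80 (standard error 0.43, adjusted p = 0.339). Ctsk, the cathepsin of bone-resorbing and multinucleate macrophages, stood at 1.54 and 5.696 FPKM on day 0 and 7.56 and 31.3 FPKM on day 10, a difference of 2.33. None of these genes was called.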
